A study of Mus musculus with 8 samples.

Results

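Pvalb-type interneurons of the medial ganglionic eminence (MGE) lineage were examined in single-nucleus RNA counts from the mouse cerebral cortex. A nucleus was kept when it had at least 500 detected genes and at most 2% of its UMIs (unique molecular identifiers, each counting 1 captured RNA molecule) from mitochondrial genes. Members had at least 2 UMIs of Gad1 and Gad2 together, at most 1 of Slc17a7, at least 3 of Lhx6, Nxph1 and Sox6 together, at least 4 of the panel Pvalb, Btbd11, Eya4 and Tmem132c, and at most 1 each of Sst and Vip. The rule gave 2098 members among 77185 kept nuclei and 5573 GABAergic nuclei. The 12 rule genes and the values that chose the members are therefore a description and carry no test.

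Parvalbumin interneurons arise in the embryonic medial ganglionic eminence, where Lhx6 and Sox6 mark the postmitotic lineage, and in the mature cortex they are fast-spiking basket and chandelier cells that inhibit the soma and axon initial segment of pyramidal neurons. Their short action potentials rest on Kv3 potassium channels, their rapid GABA release on synaptotagmin 2 and P/Q-type calcium channels, and their excitatory drive is gated by the receptor ErbB4 for neuregulins. During juvenile life many of them become wrapped in perineuronal nets built on the proteoglycan aggrecan. Chd8 encodes a chromatin remodeller of the CHD family whose loss-of-function variants are associated with autism.

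The series compared wild type (WT) mice with mice heterozygous for Chd8 (Chd8het) at postnatal day 25, all of strain C57BL/6J, from cortex with the medial part removed. Each group had 4 mice, 2 male and 2 female, in pairs matched for litter and sex, with 1 library per mouse. The libraries numbered 1 carried a single index and those numbered 2 a dual index, and the effects of index and of number cannot be told apart. Which Chd8 allele the mice carried is not given in the labels. Below, values of each genotype are listed as male 1, male 2, female 1, female 2. Libraries held 69503598 to 98132783 UMIs, and 7799 to 10804 nuclei per library were kept. Libraries shared 27 to 63 barcodes per pair, and 1 member barcode was present in more than 1 library. The members of a library held 2089274 to 4009625 UMIs, with a median of 8669.5 to 11230 UMIs per nucleus.

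Chd8 itself (ENSMUSG00000053754, chromosome 14, 52198151 to 52257780 on GRCm38) was at 81.1, 83.7, 89.8 and 85.4 CPM in the members of the WT libraries. CPM, the usual depth-normalised count, is computed on the summed member nuclei, here after scaling between libraries. Its values under Chd8het were 85.1, 90.7, 82.0 and 87.6 CPM. The groups overlapped, and the log2 change, always Chd8het minus WT, was 0.03 (SE 0.08, adjusted p 0.985, edgeR quasi-likelihood test with Benjamini-Hochberg adjustment). A 3' count cannot separate the alleles, and because the allele is not described this value does not check the genotype labels.

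The WT libraries held 230, 259, 214 and 349 members and the Chd8het libraries 252, 282, 239 and 273. Among MGE nuclei with at most 1 UMI each of Sst and Vip, 170 had 3 UMIs of the 4-gene panel and fell just outside the rule, 160 had 4 and 135 had 5. A further 1803 had 6 or more, while 1290 had 0 to 2. The comparison types were 336 Sst-type nuclei (24 to 58 per library), another MGE class, and 415 Vip-type nuclei (42 to 62 per library), which come from the caudal ganglionic eminence (CGE).

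The markers given for this type were used by the rule, and Pvalb itself was sparse. Only 750 of 2098 members (35.7%) had a Pvalb UMI (ENSMUSG00000005716, chromosome 15, 78191114 to 78206400 on GRCm38, encoding the calcium buffer parvalbumin). The share was 50, 28.2, 41.6 and 30.7% in WT libraries, and 38.5, 22.0, 47.7 and 34.1% in the Chd8het libraries. In excitatory nuclei, which should lack the gene and had median depths of 9871 to 13569 UMIs, the share was 0.964 to 3.06%. Btbd11, which encodes an ankyrin-repeat protein, was seen in 93.9 to 97.6% of members, and Lhx6, the lineage transcription factor, in 36.8 to 51.3%. The summed level of Pvalb was 26.5 to 77.6 CPM in members, against 0 to 8.62 CPM in Sst-type and 0 to 7.07 CPM in Vip-type nuclei. Lhx6 lay at 45.9 to 71.1 CPM in members, at 57.9 to 114 CPM in Sst-type and at 0 to 4.19 CPM in Vip-type nuclei.

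**Figure D1:**
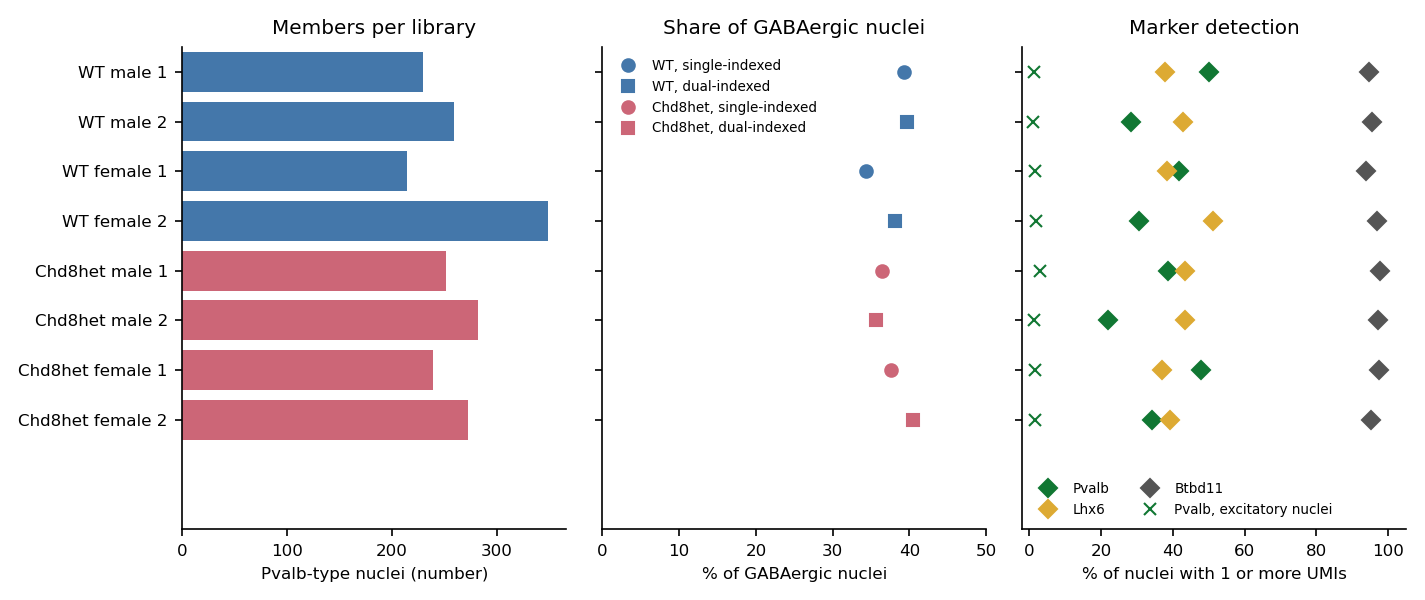
Pvalb-type nuclei per library (left, number), their share of GABAergic nuclei (middle, percent) and the percent of them with at least 1 UMI of Pvalb, Lhx6 or Btbd11 (right), with the percent of excitatory nuclei with a Pvalb UMI as crosses. The libraries hold 214 to 349 members, Btbd11 is seen in over 90% of them in every library, and Pvalb in 22.0 to 50%.

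Members also carried RNA of other types, unevenly over libraries. Scrublet predicted 116 of the 2098 members as doublets (5.53%), from 1.30% in WT male 1 to 9.52% in Chd8het female 2. In 210 members (10.0%) the summed UMIs of a marker list of another type reached 20 or the haemoglobin UMIs reached 10. They are called nuclei with other-type markers below, and were 4.35, 10.8, 7.94 and 12.6% of members in the WT libraries and 7.54, 14.5, 3.77 and 15.4% in the Chd8het libraries. By list, 77 nuclei passed on CGE markers, 70 on astrocyte markers, 51 on excitatory, 33 on oligodendrocyte-lineage, 17 on microglial and 1 on vascular markers, and 3 had 10 or more haemoglobin UMIs. Adarb2, which marks CGE interneurons, reached 10 UMIs in 86 members, with 2 in Chd8het female 1 and 23 in Chd8het male 2. These nuclei meet the rule and were kept. Some of the genotype results below are also given without them.

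The levels of functional gene groups were set beside those of Sst-type nuclei from the same libraries. Because the rules used expression, these are descriptions, and the lists were chosen with earlier results of these data known. Of 9673 genes at 10 CPM or more in either type, 1060 were higher and 951 lower in members in 8 of 8 libraries, with a median log2 ratio of -0.01 (computed with 1 CPM added).

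Genes on the list of Kv3 and Kv1 potassium channels were mostly higher than in Sst-type nuclei. Of its 15 genes, 11 were higher in 8 of 8 libraries and 2 lower in all 8 (median log2 ratio 0.81). The list also holds the Kv4 partner genes Kcnip1, Kcnip2 and Kcnip4, and Kcnmb2. Kcnc1, which encodes the Kv3.1 pore subunit, was at 365, 299, 404 and 316 CPM in the WT libraries and 396, 262, 405 and 300 CPM in the Chd8het libraries. Its range in Sst-type nuclei, 59.1 to 141 CPM, lay below all 8. Kcnc2, encoding Kv3.2, was at 2945 to 3751 CPM in members and 1523 to 2324 CPM in Sst-type nuclei. Kcns3, a silent subunit known from parvalbumin cells, was at 67.7 to 125 CPM against 34.9 to 64.6 CPM. Kcnip2, an accessory protein of Kv4 channels, had a log2 ratio of 2.54, whereas Kcnc4 was lower, with a ratio of -1.64.

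Other excitability genes went in both directions. Kcnh7 of the ERG family and Kcnj3, a GIRK subunit, had log2 ratios of 2.58 and 1.45, and Kcnd3, a Kv4 pore subunit, had -2.48 with 36.6 to 142 CPM in members against 274 to 442 CPM in Sst-type nuclei. Scn1a, the axonal sodium channel Nav1.1, was at 465 to 606 CPM against 177 to 405 CPM. Scn3a and the beta subunit gene Scn3b lay lower, with ratios of -1.36 and -1.99. Among 17 calcium channel, buffer and pump genes at the level minimum, 8 were lower and 4 higher in all 8 libraries. The largest difference of that list was Cacna2d3, an auxiliary calcium channel subunit, at 181 to 360 CPM in members and 1478 to 2039 CPM in Sst-type nuclei. Kcnd3, Scn3b and Cacna2d3 were also lower than in Vip-type nuclei in 8 of 8 libraries.

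Of 21 fast release genes, 3 were higher and 5 lower than in Sst-type nuclei in 8 of 8 libraries, with a median log2 ratio of -0.07. Syt2, the fast calcium sensor of release, was at 149, 133, 148 and 127 CPM in the WT libraries and at 148, 133, 166 and 119 CPM in the Chd8het libraries. In Sst-type nuclei it ranged from 2.76 to 31.5 CPM, which is 13.7-fold lower by the median ratio. Unc13c, a vesicle priming gene, went the other way, with 32.1 to 104 CPM against 499 to 721 CPM. Erbb4 was at 10218 to 10893 CPM in members, against 638 to 1116 CPM in Sst-type and 7405 to 9790 CPM in Vip-type nuclei. The glutamate receptor genes were more often lower (9 of 22) than higher (3 of 22) in all 8 libraries, led by Grin3a, an NMDA receptor subunit, with a log2 ratio of -3.23. GABA receptor genes were higher in 9 and lower in 5 of 18, with Gabrd, the extrasynaptic delta subunit, at 2.64 and Gabrg3 at 2.14.

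Perineuronal net genes were low in counts but separated. Acan, the aggrecan core protein, was at 11.5 to 22.0 CPM in members and at 0 to 2.93 CPM in Sst-type nuclei. Bcan, encoding brevican, was at 77.5 to 98.2 CPM against 2.76 to 45.2 CPM, and Adamts15, a protease that cleaves such proteoglycans, at 24.5 to 42.6 CPM against 0 to 4.11 CPM. Of 17 listed matrix genes 9 reached the level minimum, 5 of them were higher in 8 of 8 libraries and none lower (median log2 ratio 1.26). Among regulators, the nuclear receptor genes Esrrg and Rora and the coactivator gene Ppargc1a, which drives mitochondrial gene programmes, had ratios of 2.42, 1.49 and 1.45. Of 23 nuclear genes of mitochondrial energy supply, however, 3 were higher and 1 lower in all 8 libraries, and the median ratio was 0.13. The peptide precursor gene Tac1, known from basket cells, was at 17.6 to 33.0 CPM against 0 to 10.3 CPM. Outside the lists, the highest ratios included Mybpc1 (56.7 to 102 CPM against 0 UMIs in all Sst-type libraries), which was also present in Vip-type nuclei at a median of 72.4 CPM, and Cemip, a hyaluronan-binding protein gene, at 536 to 673 CPM against 22.9 to 65.0 CPM.

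**Figure D2:**
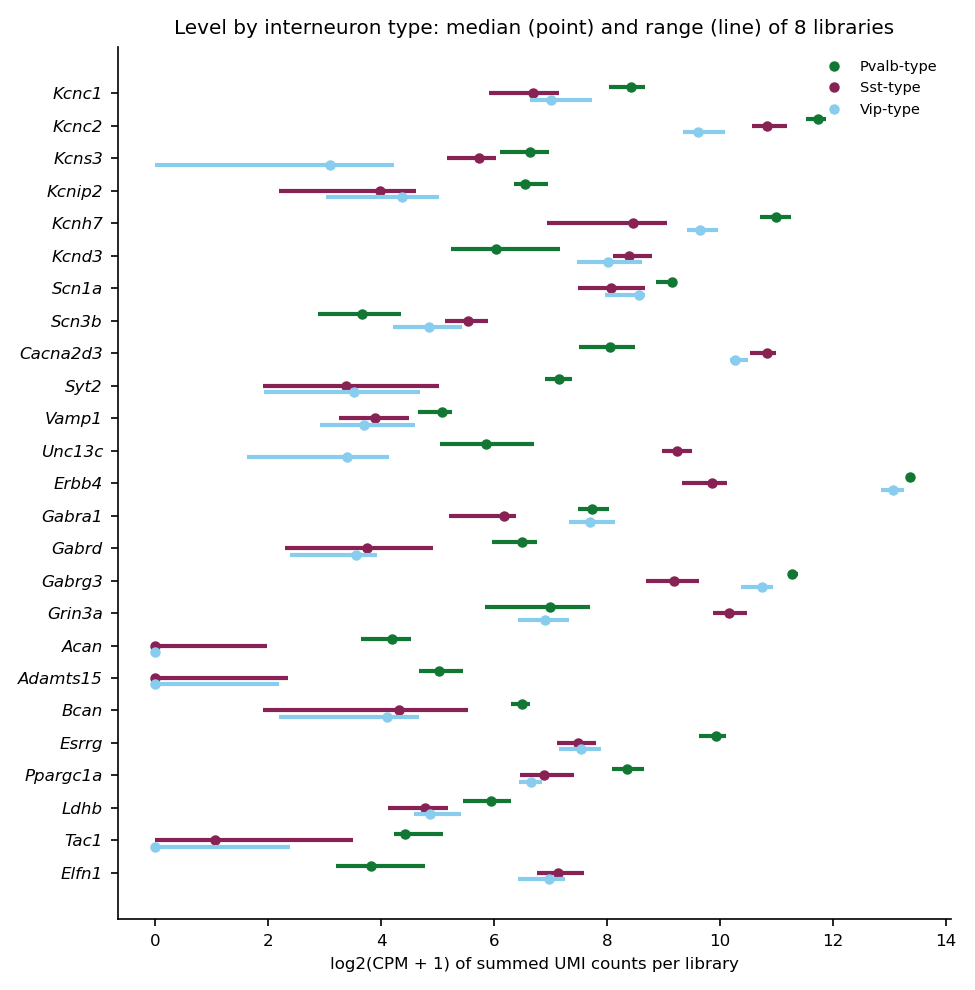
Level of 25 genes, as log2 of CPM plus 1, in Pvalb-type, Sst-type and Vip-type nuclei, with the median as a point and the range over 8 libraries as a line. The lines of Pvalb-type and Sst-type nuclei do not overlap for Kcnc1, Syt2, Erbb4 and Acan, which lie higher in Pvalb-type nuclei, or for Kcnd3, Unc13c and Grin3a, which lie lower.

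Markers of chandelier cells were rare. At least 3 UMIs of Unc5b, Vipr2 and Cpne5 together were found in 24 members (1.14%), 0 to 7 per library. A further 35 had exactly 2 and 191 exactly 1. This is a range of a count score and not a cell class. Reln and Calb1, listed as markers of basket subsets, were lower than in Sst-type nuclei in 8 of 8 libraries, with log2 ratios of -2.50 and -1.53.

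Index type moved with several defining genes. Pvalb was at 57.2 to 77.6 CPM in the 4 single-indexed libraries and at 26.5 to 38.7 CPM in the 4 dual-indexed ones, although the dual-indexed members were deeper (median UMIs per nucleus 10304 ± 790 against 8906.5 ± 201, SD, n = 4). With every member thinned to 3000 UMIs, which left out 9 nuclei, a Pvalb UMI was found in 16 to 20.6% of members in single-indexed and 6.76 to 12% in dual-indexed libraries. The members were chosen before thinning by a rule that holds Pvalb, so this does not remove the part of depth in that choice. With the rule applied after thinning, members were 18.2 to 21.7% of GABAergic nuclei in single-indexed and 13.9 to 19.4% in dual-indexed libraries. At full depth these were 34.4 to 39.2% and 35.7 to 40.4%. The CPM by index type are, as between types, not scaled between libraries. Kcnc1, Scn1a and Ppargc1a were also higher in every single-indexed library, at 365 to 405, 599 to 606 and 347 to 400 CPM, against 262 to 316, 465 to 530 and 270 to 305 CPM. Kcnd3, Grin3a and Adarb2 were lower, at 36.6 to 44.5, 56.4 to 103 and 109 to 316 CPM against 84.3 to 142, 150 to 206 and 345 to 855 CPM. Over all 12994 genes tested, 10.1% lay higher and 10.2% lower in all single-indexed libraries without overlap. Of the 26 mitochondrial energy genes 9 lay higher and 0 lower. These genes were chosen after their values were seen, replicate number and index type coincide, and the part of other-type RNA in these differences was not tested.

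**Figure D3:**
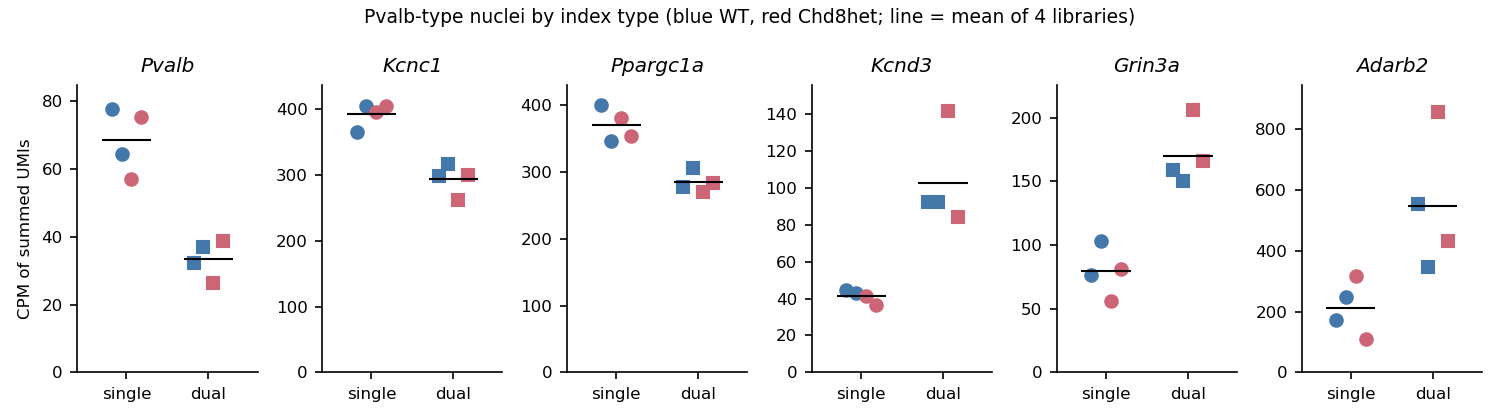
CPM of 6 genes in Pvalb-type nuclei of the 4 single-indexed and 4 dual-indexed libraries, coloured by genotype, with the mean as a line. For each gene the single-indexed and dual-indexed libraries do not overlap, with Pvalb at 57.2 to 77.6 CPM against 26.5 to 38.7 CPM, and both genotypes are found on each side.

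The first comparison by genotype was of abundance. Members were 39.2, 39.7, 34.4 and 38.1% of GABAergic nuclei in WT libraries and 36.4, 35.7, 37.6 and 40.4% in the Chd8het libraries. The groups overlapped almost fully, with means of 37.8 ± 2.39% and 37.5 ± 2.11% (SD, n = 4 each). The difference of -0.335 percentage points had an exact permutation p of 0.857 (two-sided, 70 splits, smallest possible p 0.0286). With nuclei thinned to 3000 UMIs the shares were 21.7, 16.9, 18.2 and 19.4% in the WT libraries. In the Chd8het libraries they were then 20, 13.9, 20.4 and 16.4%, and the groups still overlapped. Among all kept nuclei the share was 2.81 ± 0.647% for WT against 2.69 ± 0.436% for Chd8het (p 0.771 by exact permutation, n = 4 each). The median UMI count per member was 9643 ± 808 and 9567 ± 1144 (exact permutation p 0.914, n = 4 each). These permutations ignore the pairs. Exact sign flips within the 4 pairs (16 flips) gave p of 0.875, 0.625 and 0.875 for the 3 quantities in this order. With 16 flips a two-sided p under 0.05 cannot be reached. None of these differences over all members exceeded the spread between libraries, and leaving out single libraries turned the sign of each. Without the 210 nuclei with other-type markers the difference in the share of Pvalb-type among GABAergic nuclei was -0.844 percentage points, in the share of Pvalb-type among kept nuclei -0.150 and in the median UMIs per Pvalb-type nucleus -269.9 (exact permutation p 0.629, 0.629 and 0.714, n = 4 each). Here the marked nuclei were left out of the members only, while all GABAergic and kept nuclei stayed in the denominators. Both shares therefore also fall where more members were marked.

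The second comparison asked which genes changed in the members. Counts were summed per library and tested with the edgeR quasi-likelihood test in a model of sex, index type and genotype, and 5 of 12994 genes were called at a Benjamini-Hochberg adjusted p under 0.05 (0.0385% of those tested), all higher in Chd8het. At an unadjusted p under 0.05 there were 824 genes (6.34%), 425 higher (3.27%) and 399 lower (3.07%). The 5 calls were 4 haemoglobin genes and Trpm3. The model with the pair of libraries in place of sex and index type called 9 genes, among them these 5 and Slc1a2, F3 and Zfp804a (0.0693%), and had 6.66% of genes at an unadjusted p under 0.05, 3.44% higher and 3.22% lower. DESeq2 called 0 genes, with 246 at an unadjusted p under 0.05, and edgeR without the index term called 0, with 302. Hbb-bt, Hba-a1 and Hba-a2 fell under the count filter there, the genotype log2 change of Hbb-bs was 5.55 and the genotype log2 change of Trpm3 was 1.65.

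The haemoglobin counts came almost wholly from single nuclei. Hbb-bs (ENSMUSG00000052305, chromosome 7, 103826534 to 103828096), a beta-globin gene, was at 5.01, 1.76, 1.48 and 3.34 CPM in the WT libraries and 253, 0.329, 311 and 1.47 CPM in the Chd8het libraries. Both single-indexed Chd8het libraries were high and both dual-indexed ones lay within or below the WT range. Its log2 change was 5.03 (SE 0.60, adjusted p 0.00231, edgeR with Benjamini-Hochberg). Hbb-bt, Hba-a1 and Hba-a2 had the same pattern, with log2 changes of 4.91, 5.56 and 4.48. These 3 genes passed the count filter only through the single-indexed Chd8het libraries, so their direction is in part set by the filter. Of the 1123 haemoglobin UMIs in Chd8het male 1, 1096 were in 1 nucleus, and of the 1344 in Chd8het female 1, 1254 were in 1 nucleus. Without Chd8het male 1, 0 genes were called and 811 had an unadjusted p under 0.05. Hbb-bt, Hba-a1 and Hba-a2 were not tested there, the genotype log2 change of Hbb-bs was 4.51 and the genotype log2 change of Trpm3 was 1.35. Without the 3 nuclei that had 10 or more haemoglobin UMIs, Hbb-bs had a log2 change of -0.73, the other 3 genes fell under the count filter, and 0 genes were called, with 821 at an unadjusted p under 0.05. The log2 change of Trpm3 was then 1.67, against 1.66 with these nuclei, and its unadjusted p 1.19e-05 against 1.42e-05. Its adjusted p was 0.154 (edgeR with Benjamini-Hochberg). In the main fit the 4 haemoglobin genes ranked ahead of Trpm3 by p, and the adjusted p depends on that rank.

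Trpm3 (ENSMUSG00000052387, chromosome 19, 22139046 to 22995410), a cation channel gene that lay at 446 to 901 CPM in Sst-type nuclei, was at 27.8, 54.5, 30.6 and 48.9 CPM in WT libraries. Under Chd8het it was at 124, 126, 36.8 and 227 CPM. All 4 pairs were higher in Chd8het, although Chd8het female 1 lay inside the WT range. The log2 change was 1.66 (SE 0.27, adjusted p 0.0369, edgeR with Benjamini-Hochberg). Only 531 members had a Trpm3 UMI, 336 of its 2001 UMIs were in 1 nucleus of Chd8het female 2, and 20 nuclei held 49.5% of them. Without the 210 nuclei with markers of other types it was not called (log2 1.46, adjusted p 0.197), although its unadjusted p was 1.59e-05 there and 1.42e-05 with them, nor without predicted doublets (log2 1.01, adjusted p 0.275, edgeR with Benjamini-Hochberg). With 1 library left out, the genotype log2 change of Trpm3 lost its call in 6 of 8 fits: without any 1 of the 4 WT libraries (adjusted p 0.0844 to 0.186), without Chd8het male 1 (0.448) or without Chd8het female 2 (log2 1.16, adjusted p 0.0960), all edgeR with Benjamini-Hochberg. Over 19 settings, the main fit included, its log2 change stayed positive, from 1.01 to 1.98, and was called in 7. Trpm3 has 5 overlapping annotated genes, including Mir204.

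**Figure D4:**
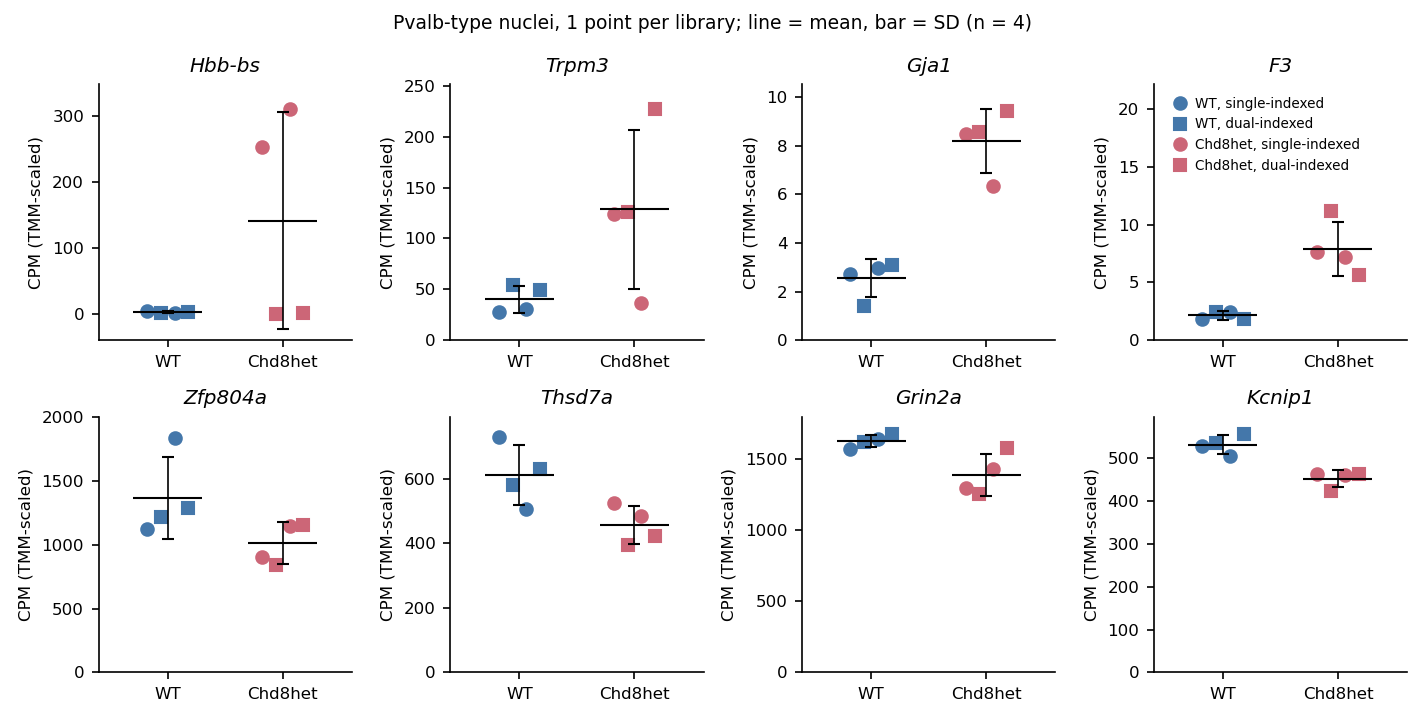
CPM of 8 genes in Pvalb-type nuclei, scaled between libraries, with 1 point per library, the mean as a line and the SD as a bar (n = 4 per genotype). Hbb-bs is high in 2 of 4 Chd8het libraries, Trpm3 is high in 3 of 4, and the points of the 2 genotypes do not overlap for Gja1, F3 and Kcnip1. Gja1 and F3 lay under the count filter in every WT library.

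Astrocyte marker RNA was also higher in the Chd8het libraries, most in both dual-indexed ones, where the haemoglobin genes were low. The 8 astrocyte markers summed to 566, 546, 530 and 639 CPM in the members of the WT libraries and 662, 887, 651 and 878 CPM in the Chd8het libraries, so the groups did not overlap, and none of the 8 was at 0. Of 6 tested members 4 were higher at an unadjusted p under 0.05 (background 3.27% higher) and 0 were called. Gja1, the gap junction gene of astrocytes, was at 2.73, 1.41, 2.96 and 3.09 CPM in WT and 8.46, 8.55, 6.34 and 9.44 CPM in Chd8het libraries. The groups did not overlap, and the log2 change was 1.69 (SE 0.31, adjusted p 0.0955, edgeR with Benjamini-Hochberg). Gja1 had 4 to 12 UMIs in the WT libraries and 15 to 32 in the Chd8het libraries. Gja1 and F3 lay under the count filter in every WT library and were tested only because of the Chd8het libraries. Their direction and non-overlap are therefore in part set by the filter. Slc1a2, the main astrocytic glutamate transporter, had a log2 change of 0.62 and was called with the pair term (adjusted p 0.0400, edgeR with Benjamini-Hochberg) but not without it (adjusted p 0.169). Without the 210 nuclei with other-type markers, which were in part chosen by astrocyte markers, the log2 change of Slc1a2 was 0.38, of Gja1 1.38 and of F3 1.45, and the astrocyte list had 3 of 5 tested genes at an unadjusted p under 0.05 and a median of 0.38, against 0.73 with them. Oligodendrocyte-lineage markers summed to 144 to 334 CPM in WT and 200 to 365 CPM in Chd8het, with 8 of 8 tested genes higher and 5 of them at an unadjusted p under 0.05 (2 of 6 without those nuclei, with a median of 0.34 against 0.54). Cspg4, 1 of the 5, also lay under the count filter in every WT library. CGE markers had 8 of 8 tested genes higher (median 0.21, sums of 224 to 623 CPM in WT and 176 to 948 CPM in Chd8het) and excitatory markers 7 of 8 (median 0.14, 350 to 485 CPM and 404 to 532 CPM), with 0 of either list at an unadjusted p under 0.05. Without the nuclei with other-type markers the CGE median fell to 0.10 (0 of 6 tested genes at that level). The excitatory median rose to 0.23 (1 of 7). The sum of striatal projection neuron markers was lower in 4 of 4 pairs (844.8 to 1641 CPM in WT and 780.6 to 1547 CPM in Chd8het), with 3 of 4 tested genes lower. Most of that sum was Pde10a, at 828 to 1607 CPM in WT and 736 to 1436.5 CPM in Chd8het, with a UMI in 98.9% of members. Pde10a had an unadjusted p of 0.000781 (adjusted p 0.273, edgeR with Benjamini-Hochberg). Meis2 of the same list was higher in 3 of 4 pairs (log2 0.32, SE 0.20). Microglial markers (153 to 189 CPM in WT and 135 to 195 CPM in Chd8het) were higher in 1 of 4 pairs, with 5 of 7 tested genes lower and 0 at an unadjusted p under 0.05. The part of RNA from other cells in the Trpm3, F3 and Slc1a2 values was not tested beyond leaving out the marked nuclei, after which 0 genes were called and 677 (5.47%) had an unadjusted p under 0.05, 2.68% higher and 2.79% lower. The marked nuclei include the haemoglobin-rich ones: Hbb-bs then had a log2 change of -0.65, and Hbb-bt, Hba-a1 and Hba-a2 were not tested.

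Genes with UMIs spread over most members gave smaller changes. Zfp804a (ENSMUSG00000070866, chromosome 2, 82053222 to 82259879), a zinc finger gene whose human counterpart is a schizophrenia risk locus, had a UMI in 92.0% of members. It was at 1120, 1220, 1840 and 1286 CPM in the WT libraries and at 901, 843, 1147 and 1158 CPM in the Chd8het libraries. It was lower in Chd8het in 4 of 4 pairs, with overlapping groups, and its log2 change was -0.43 (SE 0.08, adjusted p 0.0955, edgeR with Benjamini-Hochberg). With the pair term its adjusted p was 0.0400. The highest library was WT female 1, and the log2 change was -0.41 without the nuclei with other-type markers (adjusted p 0.345, edgeR with Benjamini-Hochberg), where its unadjusted p was 7.06e-05 against 5.88e-05 with them.

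Genes that an earlier analysis of these data had called in all MGE nuclei or elsewhere were followed, and since they were chosen on these libraries their direction is not independent evidence. Thsd7a, an adhesion gene with thrombospondin repeats, was at 730, 580, 505 and 629 CPM in WT and 525, 394, 485 and 421 CPM in Chd8het libraries. It was lower in 4 of 4 pairs, and the log2 change was -0.43 (SE 0.09, adjusted p 0.193, edgeR with Benjamini-Hochberg). Gm44129, a noncoding RNA on the opposite strand within Thsd7a, was at 56.9, 54.2, 34.0 and 56.6 CPM against 38.9, 29.6, 15.6 and 42.5 CPM, with a log2 change of -0.67 (adjusted p 0.493). Since no source used here says whether counting used strand, the reads of these 2 genes may not be separated. Gm26854, 5330434G04Rik and Maml3 were lower too, with log2 changes of -0.36, -0.14 and -0.24, none of them called. Nr4a2 did not reach the count filter.

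Among the lists of neuronal function 0 genes were called, beside 0.0385% of all genes tested, so the counts at an unadjusted p under 0.05 (background 6.34%) are given. Adhesion and synapse organiser genes gave the largest count, with 10 of 37 tested genes at that level, all lower in Chd8het against a background of 3.07% lower. The list median was nevertheless -0.04, beside -0.003 for all genes tested. Thsd7a was among the 10, and it had been chosen on earlier results of these libraries. The others, named after their values were seen, were Cntnap2, Cntnap5a, Cntn4, Cntn6, Lrrc4c, Il1rapl1, Il1rapl2, Kirrel3 and Pcdh15, with log2 changes of -0.31 to -0.10. Cntn4, a contactin, was at 1642 to 1877 CPM in WT and 1458 to 1641 CPM in Chd8het libraries, which did not overlap (log2 -0.19, SE 0.05, adjusted p 0.386, edgeR with Benjamini-Hochberg). Such non-overlap held for 303 of the 12994 genes (2.33%). Without the nuclei with other-type markers, 4 of 36 adhesion genes were at an unadjusted p under 0.05, while the list median was -0.06, against -0.04 with them. Leaving these nuclei out also removed their UMIs from the counts tested.

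Glutamate receptor genes had 15 of 22 members lower and 7 higher, with a median of -0.07, and 5 had an unadjusted p under 0.05 (2 without the nuclei with other-type markers). Grin2a, the NMDA receptor subunit of maturing synapses, was at 1573, 1620, 1640 and 1675 CPM in WT and at 1295, 1257, 1430 and 1581 CPM in Chd8het libraries. It was lower in 4 of 4 pairs and overlapped only through Chd8het female 2, and the log2 change was -0.23 (SE 0.06, adjusted p 0.266, edgeR with Benjamini-Hochberg). Grin2b, Gria1 and Gria4 had log2 changes of -0.16, -0.12 and -0.12 at an unadjusted p under 0.05, and Grm8 0.39. On the Kv3 and Kv1 list, which also holds Kv4 partners, 10 of 15 genes were lower and 2 reached that level, Kcnip1 and Kcnab1. Kcnip1, a Kv4 channel partner, was at 529, 536, 504 and 556 CPM in WT and 463, 423, 460 and 462 CPM in Chd8het libraries, without overlap (log2 -0.23, SE 0.06, adjusted p 0.335, edgeR with Benjamini-Hochberg). The list of other potassium and HCN channels had 10 of 17 genes higher and 7 lower, a median of 0.02, and 3 at an unadjusted p under 0.05, all lower. Of these Kcnq3, an M-current subunit, had -0.25 (adjusted p 0.417, edgeR with Benjamini-Hochberg) and was lower in 4 of 4 pairs.

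Sodium channel genes had 0 of 13 members at an unadjusted p under 0.05, mitochondrial energy genes 0 of 26 and CHD remodellers 0 of 9. The closest of these to the threshold were Fgf14, Idh3a and Chd7, with log2 changes of -0.08, -0.21 and 0.21. Of 12 perineuronal net genes 9 had a positive and 3 a negative log2 change, and 1 in each direction had an unadjusted p under 0.05 (background 3.27% higher and 3.07% lower). These were Hapln1, a link protein gene (log2 0.48, SE 0.20), and Tnr, encoding tenascin-R (-0.19, SE 0.06). Without the nuclei with other-type markers Hapln1 had a log2 change of 0.22 (SE 0.26) and Tnr -0.14 (SE 0.06). GABA genes gave Slc6a11, a transporter known from astrocytes, at 0.87 and Aldh5a1, which degrades GABA, at -0.28. Among the activity-induced genes 8 of 10 were higher, with a median of 0.20, of which Per1 (0.61) had an unadjusted p under 0.05. Per1 was at 24.0 CPM in Chd8het male 2 and at 10.9 to 12.3 CPM in the other Chd8het libraries. Its log2 change ranged from 0.36 to 0.90 over 19 settings. Autism-associated genes had 24 of 40 members lower with a median of -0.03, including Ube3a, a ubiquitin ligase gene (-0.23, SE 0.08, adjusted p 0.594, edgeR with Benjamini-Hochberg). Its groups only just failed to overlap, at 2166 CPM in the lowest WT and 2164 CPM in the highest Chd8het library. Of all genes tested 2.33% did not overlap. Snhg14 lies on the opposite strand over Ube3a, and as strand use is not stated their reads may not be separated.

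**Figure D5:**
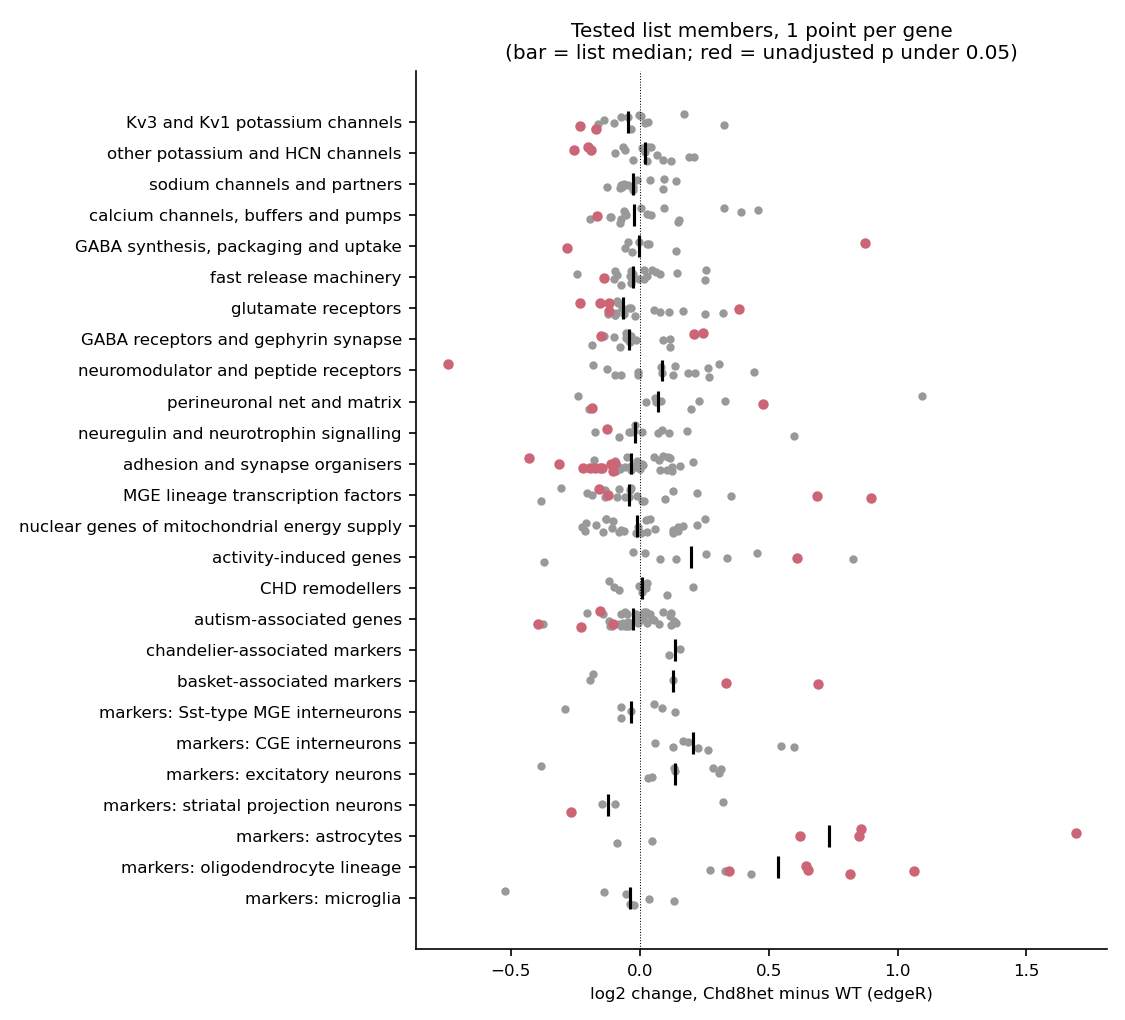
Log2 change (Chd8het minus WT) of each tested gene by list, with the list median as a bar and genes at an unadjusted p under 0.05 in red. Medians lie within 0.2 of zero for every list of neuronal function, while the astrocyte and oligodendrocyte-lineage lists have medians of 0.73 and 0.54.

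Whether genotype acted differently in Pvalb-type and Sst-type nuclei was tested by a term for the difference of the 2 changes within mice. The term was called for 4 of 12268 genes (0.0326%) by edgeR with Benjamini-Hochberg adjustment, and 586 (4.78%) had an unadjusted p under 0.05, 2.46% positive and 2.31% negative. They were Adarb2 (1.91, SE 0.28), Trpm3 (1.39, SE 0.22), St18 (-2.73, SE 0.44) and Prr5l (-3.17, SE 0.66), with adjusted p of 0.000134, 0.000289, 0.000435 and 0.0441. With the pair term 4 genes were called, of which 3 were the same: Prr5l had an adjusted p of 0.0679 (edgeR with Benjamini-Hochberg) in the genotype by type log2 term of Prr5l, and Gpc5 was called. Few members carried them: 22.9% had an Adarb2 UMI, 25.3% a Trpm3, 8.05% an St18 and 3.15% a Prr5l UMI. In Sst-type nuclei Adarb2 had a log2 change of -2.07, with 172 UMIs in WT female 1 and 4 to 61 in the other 7 libraries, against 0.17 in Pvalb-type nuclei. Without the nuclei with other-type markers the Adarb2 and St18 terms turned sign, to -0.62 and 0.40; these nuclei were in part chosen by a CGE list that holds Adarb2. Without predicted doublets 0 genes were called (509 at an unadjusted p under 0.05), and without nuclei with other-type markers 2 others were, Tafa1 and Gm26854. For the spread genes the term was small, with 0.01 (SE 0.14) for Thsd7a, -0.13 (SE 0.19) for Zfp804a and 0.10 (SE 0.12) for Grin2a. Their adjusted p was 1 (edgeR with Benjamini-Hochberg), which does not show that the types respond alike.

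Sex gave 7 calls of 12994 genes (0.0539%) from the same fit, all sex-linked. Xist, the RNA that silences the inactive X chromosome, its antisense Tsix and Kdm6a, which escapes silencing, were higher in females, and Uty, Eif2s3y, Kdm5d and Ddx3y of the Y chromosome were lower. Xist was at 965 and 675 CPM in the WT and at 815 and 586 CPM in the Chd8het females, and at 0 to 0.846 CPM in males. Kdm6a was at 68.5 to 77.0 CPM in females and 38.5 to 52.8 CPM in males, a log2 difference of 0.63 (SE 0.10, adjusted p 0.0263, edgeR with Benjamini-Hochberg). Strand was not stated, so Xist and Tsix may share reads. At an unadjusted p under 0.05 there were 755 genes (5.81%), 2.78% higher and 3.03% lower in females, and no autosomal gene was called. With 1 library left out, the sex log2 change of Kdm6a lost its call in 7 of 8 fits (adjusted p 0.0532 to 0.153, edgeR with Benjamini-Hochberg), and autosomal genes such as Tcf7l2, Olfm3 and Zfp804a were called in some of them.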

How the data were processed

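Per the labels' protocols, nuclei of frozen cortex were captured with the 10x Genomics 3' kit, v3 chemistry. Per the submitters' processing notes, STAR 2.7.9a, STARsolo, Cell Ranger and mm10 were used; how strand and introns were handled is not given in the sources used. The authors deposited whole-number UMI counts per barcode for 32285 genes. Members, gene lists and models were chosen with earlier results of these data known.

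Counts of members were summed per library. edgeR 4.0.16 (count filter with a minimum of 10, TMM scaling, quasi-likelihood F test, two-sided, Benjamini-Hochberg over all genes tested, called under 0.05) was fitted with sex, index type and genotype over 8 libraries. Scaling factors were 0.98 to 1.03. The term for type used Pvalb-type and Sst-type sums with a term per mouse. Between types, plain CPM were compared without a test. Shares were compared by exact permutation. On simulated counts of 12694 genes the genotype fit called 80.4% of changes of 1 (log2), 31.6% of 0.5 and 9 of 12497 unchanged genes. The simulated counts followed the dispersion trend, without scatter of single genes around it. They held no differences by sex or index type and no counts concentrated in single nuclei. The real counts have these, so the shares called may be too high for them.

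Sst-type nuclei passed the MGE rule with at least 3 Sst UMIs, at most 3 of the Pvalb panel and at most 1 Vip UMI. Vip-type nuclei had at least 2 Vip UMIs at most 2 of Lhx6, Nxph1 and Sox6, and at most 1 Sst UMI. Both were GABAergic by the same rule. Excitatory nuclei had 3 or more Slc17a7 UMIs and at most 1 of Gad1 and Gad2. Doublets were predicted with Scrublet (scanpy 1.11.5) and kept in the main results. Named genes were those called, the 10 of smallest p, the 2 tested genes of smallest p in each list and the genes of the earlier analysis; between types, the 3 largest ratios per list and the 10 largest and smallest outside lists, from which examples are given. Coordinates are GRCm38 from GENCODE M21, where 32158 gene identifiers matched.

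WT and Chd8het libraries that share sex and number correlated in their deviations from genotype means (r 0.309 to 0.430). The pairs come from the labels, which describe pairs matched for litter and sex. With sex and index type removed the correlation was -0.538 to -0.470, where -0.5 is the value for independent libraries, so the data showed no pairing beyond sex and index type. Libraries of equal index type but other sex also correlated (0.168 to 0.303). Libraries of a group differed by more than sampling noise (chi-square per degree of freedom 4.65 to 8.19). Alternatives are given in the closing section. Some members of the lists and of the calls are not reported here.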

Additional observations from a re-analysis of the deposited data

Results flagged for a closer look

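Among 140 sets of 4 library values of named genes, 5 had a library far from the other 3 of its genotype, and chance alone gives about 5% of such sets. Hbb-bt was at 2.28 CPM in WT male 1 and at 0 to 0.352 CPM in the other WT libraries. In Chd8het male 2, Kcnip1 was at 423 CPM against 460 to 463 CPM in the other Chd8het libraries, Per1 at 24.0 CPM against 10.9 to 12.3 CPM, and Nr4a3, an activity-induced nuclear receptor gene, at 14.1 CPM against 0.846 to 1.77 CPM. Gm44129 was at 34.0 CPM in WT female 1 and at 54.2 to 56.9 CPM in the other WT libraries.

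The genotype change differed between Pvalb-type and Sst-type nuclei by the tested term for 4 genes. The terms, in log2, were 1.91 for Adarb2, 1.39 for Trpm3, -2.73 for St18 and -3.17 for Prr5l, the last not called with the pair term. In Sst-type nuclei St18 had 76 UMIs in Chd8het female 2 and 0 to 34 in the other 7 libraries, and Prr5l had 34 in Chd8het female 2 and 0 to 10 elsewhere.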

How the results depend on the processing

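The 5 genotype calls became 0 with the DESeq2 Wald test, with index type left out, without the haemoglobin-rich nuclei and without nuclei with other-type markers, the last pair chosen after seeing the data, and 103 without the count filter. The nuclei with other-type markers include the haemoglobin-rich ones, so these 2 settings are not separate for the haemoglobin calls. Without the haemoglobin-rich nuclei the log2 change of Trpm3 stayed at 1.67 (adjusted p 0.154, edgeR with Benjamini-Hochberg). With index type left out, and without Chd8het male 1, Hbb-bt, Hba-a1 and Hba-a2 were not among the genes tested. With the pair as replicate block there were 9, which hold all 5. Leaving out 1 library gave 0 (without Chd8het male 1) to 13 (without Chd8het female 1), with 1 without WT male 1, 3 without WT female 1 and 9 without Chd8het male 2. Trpm3 was called in 2 of these 8 fits, without Chd8het male 2 and without Chd8het female 1, and at a panel threshold of 6 the genotype log2 change of Trpm3 had an adjusted p of 0.0787 (edgeR with Benjamini-Hochberg). The 4 calls by type became 9 without the count filter, 1 with index type left out, 0 without predicted doublets, 8 with the stricter nucleus filter, 2 without nuclei with other-type markers, 4 with the replicate block (3 of them the same, with Gpc5 in place of Prr5l), and 1 to 10 with a library left out (1 without Chd8het female 2, 2 without WT male 2, 8 without Chd8het female 1, 9 without WT male 1 and 10 without Chd8het male 1). The 7 sex calls became 67 without the count filter, and 7 to 13 with a library left out (13 without Chd8het female 1). Kdm6a was called in 1 of those 8 fits, without WT male 1, and was also lost with index type left out, without predicted doublets, at the threshold of 6 and without nuclei with other-type markers, while the other 6 sex-linked genes were called in each; no paired fit is possible for sex. The causes were not tested.

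With a library left out, the difference in the share of Pvalb-type among GABAergic nuclei ranged from -1.48 to 0.285 percentage points, that in the share of Pvalb-type among kept nuclei from -0.384 to 0.0621, and that in the median UMIs per Pvalb-type nucleus from -631 to 231. The first turned positive without WT male 1 (0.134), WT male 2 (0.272), Chd8het male 1 (0.0473) or Chd8het male 2 (0.285). The second did so without WT male 2 (0.0511) or WT female 2 (0.0621), and the last without WT male 2 (60.7), WT female 2 (231), Chd8het male 1 (223) or Chd8het female 1 (111).

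Among single genes the log2 change turned sign for Hbb-bs (-0.73 without haemoglobin-rich nuclei, -0.65 without nuclei with other-type markers, a set that holds the haemoglobin-rich nuclei too), Cpne5 (-0.037 at a panel threshold of 6, and -0.055 without Chd8het male 2 to 0.29 with another library left out), Unc5b (-0.12 without WT male 2 and -0.031 without Chd8het male 2, to 0.43), Reln (-0.052 at the threshold of 6), Tacr1 (-0.033 without Chd8het female 2, to 0.24) and Chd8 (-0.00407 without Chd8het male 2, to 0.071). The term by type turned for Adarb2 (-0.62 without nuclei with other-type markers) and St18 (1.24 without doublets, 0.40 without nuclei with other-type markers). Of the other values of single genes, 1265 kept direction and side of the threshold, 52 lost the call and 35 gained it. Depth limits genes with few UMIs per library. With 4 mice per genotype the simulation, which was simpler than these data, recovered 31.6% of changes of 0.5 (log2).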
